A study of Mus musculus with 4 samples.

Results

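The nuclear genome codes for most subunits of the mitochondrial respiratory chain, and 87 such genes of 33954 in the matrix are described here across single-nucleus libraries of mouse heart. They were chosen by symbol alone, as the genes named Nduf (a, b, c, s or v, with a number), Sdha to Sdhd, Uqcr, Cox4 to Cox8 and Atp5, with pseudogenes left out. Complex I holds 39 of them, complex II 4, complex III 8, complex IV 18 and complex V 18. Ndufa4 and Ndufa4l2 are counted with complex I by their symbols, although the NDUFA4 protein is now placed in complex IV. Atp5o stands in the matrix under 2 gene identifiers, so its counts are uncertain.

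The study set Q150X, an allele of Vegfa made by CRISPR/Cas9 editing after a human stop-gained variant, against wild type in the adult mouse heart with and without acute myocardial infarction. Nuclei of whole hearts were sequenced as 4 libraries, 1 for each group: Q150X at homeostasis, wild type (WT) at homeostasis, Q150X at 3 days after infarction (3dpMI) and WT at 3dpMI. The Q150X libraries carry "ho" in their titles, while the allele name as written puts the X on only 1 copy, so the number of edited copies is unclear. The labels give no age or strain, and they do not say whether hearts were pooled. With 1 library in each group no test could be run, and intervals here cover counting error only, at 95%.

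The respiratory chain carries electrons from NADH (complex I) and succinate (complex II) through complex III to oxygen at complex IV, and the proton gradient that complexes I, III and IV build drives ATP synthesis at complex V. Cardiomyocytes are dense in mitochondria and rely on this chain for the ATP of contraction. Complexes I, III, IV and V also hold subunits coded by the mitochondrial genome, which are translated inside the organelle, while the subunits described here are made in the cytosol and imported. Several subunits of complex IV exist as an isoform of heart and skeletal muscle and an isoform found in most tissues.

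The promoters of isoform pairs that the results turn on show how differently the copies begin. Each sequence runs from 100 bases before to 10 bases after the annotated start, 5′ to 3′ on the strand of the gene, from RefSeq on GRCm38.p6. Capitals mark a match to 1 of 4 motifs searched on both strands, which were TCAAGGTCA (ERR), CCGGAAG (ETS), AAGATGGC (YY1) and that of NRF1, whose letters are the capitals in Atp5g2 read on the other strand. Cox8b is at chr7:140900437-140900546 (minus strand) and Cox8a at chr19:7217607-7217716 (minus). Cox7a1 is at chr7:30184071-30184180 (plus) and Cox7a2 at chr9:79759844-79759953 (minus). Cox6a1 is at chr5:115348949-115349058 (minus). The 3 genes of the same mature ATP synthase subunit c are Atp5g1 at chr11:96075622-96075731, Atp5g2 at chr15:102671038-102671147 and Atp5g3 at chr2:73911317-73911426, all on the minus strand.
Cox8b: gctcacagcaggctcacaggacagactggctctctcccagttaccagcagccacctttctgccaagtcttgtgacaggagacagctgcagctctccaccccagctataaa
Cox8a: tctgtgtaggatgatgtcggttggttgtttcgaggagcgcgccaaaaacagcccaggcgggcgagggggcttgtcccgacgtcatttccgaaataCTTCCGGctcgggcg
Cox7a1: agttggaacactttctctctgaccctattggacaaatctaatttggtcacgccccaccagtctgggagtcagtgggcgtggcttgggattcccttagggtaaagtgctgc
Cox7a2: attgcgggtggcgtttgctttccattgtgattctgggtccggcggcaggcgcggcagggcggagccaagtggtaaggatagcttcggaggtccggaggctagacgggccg
Cox6a1: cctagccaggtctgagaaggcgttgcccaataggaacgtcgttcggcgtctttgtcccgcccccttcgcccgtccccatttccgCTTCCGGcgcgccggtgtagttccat
Atp5g1: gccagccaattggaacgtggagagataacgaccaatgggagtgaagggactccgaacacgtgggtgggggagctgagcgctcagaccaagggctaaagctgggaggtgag
Atp5g2: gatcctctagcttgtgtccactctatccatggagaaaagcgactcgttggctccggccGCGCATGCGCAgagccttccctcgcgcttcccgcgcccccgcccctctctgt
Atp5g3: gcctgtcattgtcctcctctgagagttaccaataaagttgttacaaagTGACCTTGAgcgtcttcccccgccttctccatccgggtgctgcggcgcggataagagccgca
The first capital lies at position -5 in Cox8a, -16 in Cox6a1, -42 in Atp5g2 and -52 in Atp5g3, counted back from the start. Of the ubiquitous isoforms Cox8a and Cox6a1 held the ETS motif and Cox7a2 none of the 4 motifs, and the muscle isoforms Cox8b and Cox7a1 held none in these windows. No window is given for Cox6a2, the muscle partner of Cox6a1. Among 69 member genes with a window of 250 bases before to 50 after the start, 17 (24.6%) held the ETS motif and 10 (14.5%) the YY1 motif, against 9.93% and 3.19% of 27025 genes. NRF1 and ERR matches were in 2 members each (2.90%), against 0.688% and 0.466% of all genes. A match describes the letters only.

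The libraries held between 4390 and 9157 nuclei and between 5875965 and 32657625 UMIs (unique molecular identifiers, 1 for each captured RNA molecule), with a median of 921 to 2671 UMIs for each nucleus kept. Cardiomyocyte-like nuclei, in which all 12 markers of the class were detected in every library, numbered 836 in Q150X homeostasis, 1564 in WT homeostasis, 378 in Q150X 3dpMI and 1157 in WT 3dpMI. Their median depth was 3025, 1511.5, 7780.5 and 6140 UMIs in that order. Pairs of libraries shared 39 to 117 cell barcodes, at most 1.44% of the smaller library. A total of 3 clusters made up the class, and different ones held most of it in the libraries. Cluster 2 held 85.9% of the class in Q150X homeostasis, 63.8% in WT homeostasis, 24.3% in Q150X 3dpMI and 56.0% in WT 3dpMI. Cluster 14, with the stress genes Ankrd1, Xirp2 and Nppb among its 10 leading genes, held 69.6% in Q150X 3dpMI and 30.9% in WT 3dpMI. Cluster 12, of shallow nuclei with Hbb-bs and Ttn among its 10 leading genes, held 10.0% in Q150X homeostasis and 33.7% in WT homeostasis. Vegfa had 374 CPM (counts per 1000000 UMIs) in Q150X homeostasis, 427 CPM in WT homeostasis, 133 CPM in Q150X 3dpMI and 210 CPM in WT 3dpMI over all nuclei, and since a stop codon need not lower the transcript these counts do not check the genotype labels. In cardiomyocyte-like nuclei Vegfa stood the other way, at 925 CPM in Q150X homeostasis, 716 CPM in WT homeostasis, 700.2 CPM in Q150X 3dpMI and 594 CPM in WT 3dpMI. The class made up 13.6% of nuclei in Q150X homeostasis, 37.5% in WT homeostasis, 5.13% in Q150X 3dpMI and 13.6% in WT 3dpMI.

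In cardiomyocyte-like nuclei the members together had a lower level in WT homeostasis than in the other 3 libraries. Their UMIs summed to 12377 in Q150X homeostasis, 8378 in WT homeostasis, 12057 in Q150X 3dpMI and 29871 in WT 3dpMI. Scaled to the UMI total of the class (CPM), this was 4137 CPM (interval 4064 to 4210) in Q150X homeostasis and 2710 CPM (2652 to 2769) in WT homeostasis. After infarction it was 3691 CPM (3626 to 3758) in Q150X and 3870 CPM (3826 to 3914) in WT. Q150X over WT, this gave a ratio of 1.53 (1.48 to 1.57) in the homeostasis pair and 0.954 (0.934 to 0.974) in the 3dpMI pair. The 3dpMI value turned to 1.01 with doublets kept or with each library clustered on its own, and it was 1.08 (1.03 to 1.12) within cluster 2 and 1.02 (0.989 to 1.05) within cluster 14, so its side of 1 is not settled. The 3dpMI over homeostasis ratio was 0.892 (0.870 to 0.915) in Q150X and 1.43 (1.39 to 1.46) in WT, so the genotypes lay on opposite sides of 1. The comparisons share libraries: the low WT homeostasis library enters both the first and the last of these ratios. Fewer transcripts of the members and more of everything else in a nucleus cannot be told apart on this scale.

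Other classes of nuclei had the same order of libraries at homeostasis, and by a wider margin. The summed level was 2879 CPM in Q150X and 1615 CPM in WT in fibroblast-like nuclei, a ratio of 1.78 (1.70 to 1.87). There 56 of 81 members with at least 20 UMIs were at least 1.5-fold higher in Q150X and 0 lower, where 15.4% of all genes were higher and 4.73% lower. In vascular endothelial-like nuclei it was 4291 CPM in Q150X and 2148 CPM in WT, a ratio of 2.0 (1.86 to 2.14). Pericyte-like nuclei had 3876 CPM in Q150X and 2003 CPM in WT, a ratio of 1.94 (1.75 to 2.14). The higher level in Q150X at homeostasis was thus seen in all these classes, and the cardiomyocyte ratio was 0.856 (0.811 to 0.905) of the fibroblast one and 0.764 (0.709 to 0.824) of the vascular endothelial one. Macrophage or monocyte-like nuclei had 3659 CPM in 328 Q150X nuclei and 1749 CPM in 69 WT nuclei. At 3dpMI the Q150X over WT ratio was below 1 in each of these classes, at 0.913 (0.894 to 0.933) in fibroblast-like, 0.827 (0.805 to 0.849) in vascular endothelial-like, 0.910 (0.868 to 0.955) in pericyte-like and 0.963 (0.936 to 0.990) in macrophage or monocyte-like nuclei.

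**Figure D1:**
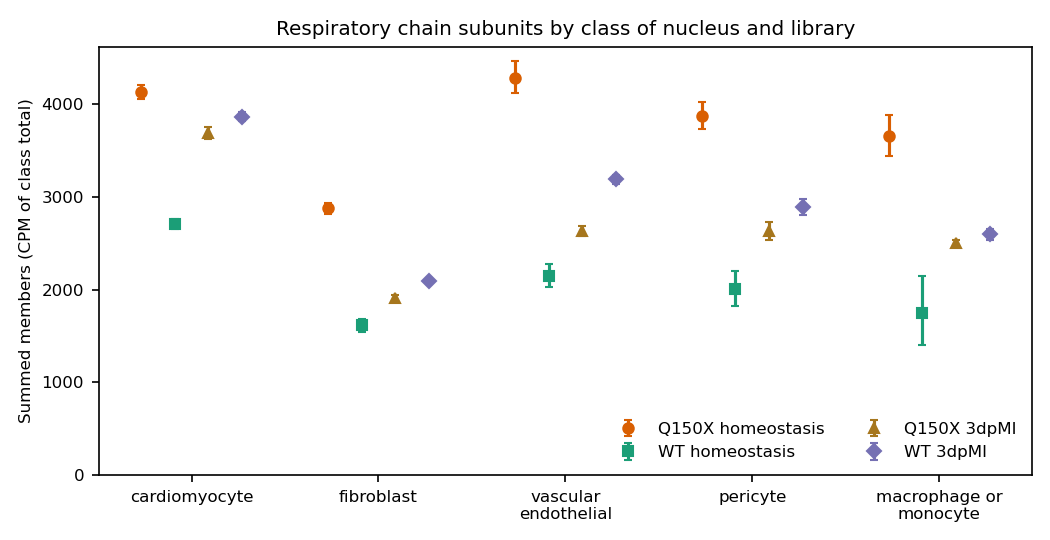
Summed level of the 87 members (y axis, CPM of the class total) in 5 classes of nuclei (x axis), with 1 point for each library and bars for the exact Poisson interval. WT homeostasis is the lowest library in all 5 classes, at 2710 CPM in cardiomyocyte-like and 1615 CPM in fibroblast-like nuclei.

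Free RNA was looked at beside these levels, since droplets also take up RNA released from broken cells. The 12 cardiomyocyte markers reached 0.757% to 9.78% of their cardiomyocyte level in the 5 non-muscle classes of at least 50 nuclei in every library (fibroblast, vascular endothelial, endocardial, pericyte, and macrophage or monocyte). The 10 short and abundant cardiomyocyte transcripts (Mb, Tnni3, Actc1, Myl2, Myl3, Tnnc1, Fabp3, Ckm, Csrp3 and Cryab) reached far more there, 5.48% to 74.3% of their cardiomyocyte level. These percents compare CPM, not UMIs for each nucleus, and the classes differed in depth. Cardiomyocyte-like nuclei held 2992076 UMIs in 836 nuclei of Q150X homeostasis and 3091591 in 1564 of WT homeostasis. Vascular endothelial-like nuclei held 552330 UMIs in 721 nuclei of Q150X homeostasis and 541986 in 543 of WT homeostasis. Vascular endothelial-like nuclei gave the 74.3%, in Q150X homeostasis, against 26.4% in WT homeostasis. At 3dpMI the same class gave 12.2% in Q150X and 32.8% in WT. The library with more short cardiomyocyte RNA in endothelial nuclei was thus also the library with more member RNA there at both times. At homeostasis the short-transcript percent of the members' cardiomyocyte level came to 3072 CPM in Q150X and 717 CPM in WT. The members' level in these endothelial nuclei was 4291 CPM in Q150X and 2148 CPM in WT. With the marker percent it came to only 404 CPM in Q150X and 102 CPM in WT. These estimates lie far apart, and the part of free RNA in the result was not tested. Of 82 members compared, 19 were higher in vascular endothelial-like than in cardiomyocyte-like nuclei in every library and 24 lower in every library. A higher CPM in vascular endothelial-like nuclei does not show where the RNA in cardiomyocyte-like nuclei came from. The part of free RNA in the cardiomyocyte level was not tested for any of the 82. Markers of other classes were also present in cardiomyocyte-like nuclei. Endocardial markers summed to 720.2 CPM in Q150X homeostasis, 697 CPM in WT homeostasis, 338 CPM in Q150X 3dpMI and 569 CPM in WT 3dpMI there, against 10070.1 to 13653 CPM in endocardial-like nuclei. The 12 fibroblast markers summed to 166 CPM in Q150X homeostasis, 105 CPM in WT homeostasis, 648 CPM in Q150X 3dpMI and 542 CPM in WT 3dpMI there, against 5910 to 14314 CPM in fibroblast-like nuclei.

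Several other sums moved with the members in cardiomyocyte-like nuclei. At homeostasis the Q150X over WT ratio was 1.44 (1.35 to 1.52) for cytosolic ribosomal protein genes and 1.58 (1.52 to 1.65) for the 10 short cardiomyocyte transcripts. It was 1.23 (1.20 to 1.26) for mitochondrially coded genes and 0.894 (0.890 to 0.899) for 10 long cardiomyocyte transcripts such as Ttn and Ryr2. The direction at homeostasis depends on the scale: divided by the short cardiomyocyte transcripts the members' ratio of 1.53 became 0.966, and divided by ribosomal protein genes it became 1.06. In WT the infarction ratio of 1.43 became 0.822 and 0.626 on these scales.

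Gene by gene, 82 of the 87 members had at least 20 UMIs over both libraries in each comparison. At homeostasis 52 of the 82 were at least 1.5-fold higher in Q150X and 0 were at least 1.5-fold lower, where 17.2% of all 10330 genes with as many UMIs were higher and 4.51% lower. The median log2 ratio was 0.73 over members and 0.18 over all genes. The interval lay above 1 for 63 members, below 1 for 0 and held 1 for 19. At 3dpMI the members were close to even, with 0 at least 1.5-fold higher in Q150X and 2 at least 1.5-fold lower (Ndufs8 and Cox8b), beside 12.7% higher and 12% lower among 12723 genes. The median log2 ratio there was -0.06 over members and 0.04 over all genes.

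**Figure D2:**
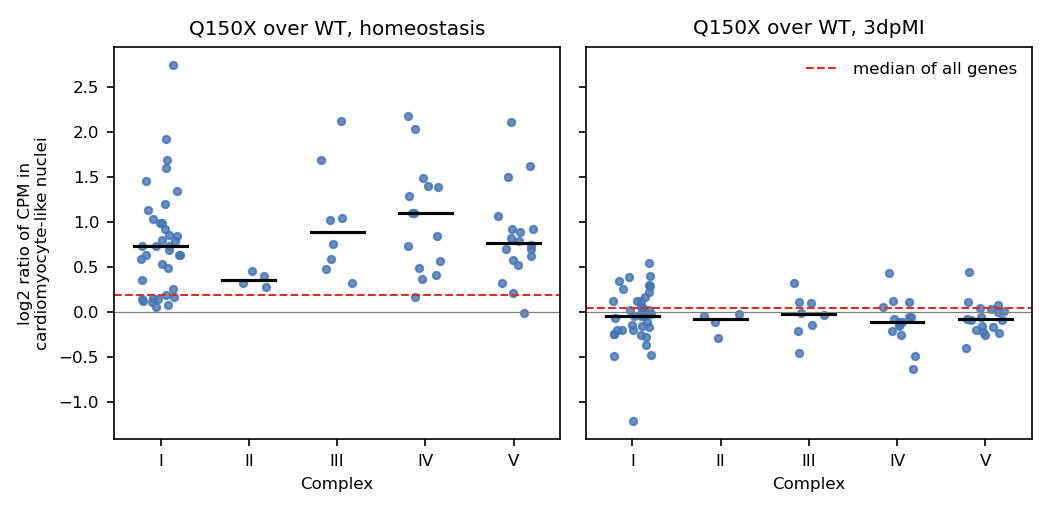
Log2 ratio of CPM in cardiomyocyte-like nuclei (y axis) for each of the 82 members, by complex (x axis), Q150X over WT, at homeostasis on the left and 3dpMI on the right. Black bars are the median of a complex and the dashed line is the median of all genes, 0.18 at homeostasis and 0.04 at 3dpMI. At homeostasis 81 of 82 members lie above 0.

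The infarction comparison gave most members a ratio below 1 in Q150X and above 1 in WT. In Q150X 5 members were at least 1.5-fold higher at 3dpMI than at homeostasis and 10 at least 1.5-fold lower, beside 31% higher and 12.9% lower among 11080 genes. The median log2 ratio was -0.16 over members and 0.21 over all genes. In WT 51 members were at least 1.5-fold higher and 0 lower, beside 40.3% higher and 6.76% lower among 12555 genes, with a median of 0.83 over members and 0.43 over all genes. By gene span, 701 of 1050 genes up to 4.89 kb were higher in WT, and 23 of 25 members. Between 4.89 kb and 9.31 kb it was 760 of 1264 genes and 21 of 29 members. From 9.31 kb up it was 3474 of 9980 genes and 7 of 28 members. Cluster 2 alone gave a summed infarction ratio of 1.07 (1.03 to 1.12) in Q150X and 1.48 (1.44 to 1.52) in WT, so the sign in Q150X differed from that of the whole class, most of which lay in cluster 14 at 3dpMI.

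Complex I, the NADH dehydrogenase through which most electrons enter the chain, had 1592 CPM in Q150X homeostasis, 1144 CPM in WT homeostasis, 1369 CPM in Q150X 3dpMI and 1408 CPM in WT 3dpMI. At homeostasis 24 of its 37 members with enough UMIs were at least 1.5-fold higher in Q150X and 0 lower, beside 17.2% and 4.51% of all genes, with a median log2 ratio of 0.73. Ndufs4, an accessory subunit whose loss causes Leigh syndrome in humans, was the most counted member, at 287 CPM in Q150X homeostasis, 252 CPM in WT homeostasis, 200 CPM in Q150X 3dpMI and 237 CPM in WT 3dpMI. It was lowest in the Q150X 3dpMI library, at 0.698 (0.630 to 0.774) of the level in Q150X homeostasis. Ndufs1, a core subunit that carries iron-sulphur clusters, had 135 CPM in Q150X homeostasis, 86.7 CPM in WT homeostasis, 82.4 CPM in Q150X 3dpMI and 97.9 CPM in WT 3dpMI. Q150X over WT, Ndufs1 had a homeostasis ratio of 1.55 (1.33 to 1.82) and a 3dpMI ratio of 0.841 (0.729 to 0.968). Ndufs3, another core subunit of the arm in the matrix, had 76.9 CPM in Q150X homeostasis, 72.8 CPM in WT homeostasis, 67.0 CPM in Q150X 3dpMI and 61.5 CPM in WT 3dpMI, and both genotype intervals held 1.

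The widest ratio of complex I was that of Ndufa13 (also known as GRIM-19), with 65 UMIs in Q150X homeostasis, 10 in WT homeostasis, 70 in Q150X 3dpMI and 152 in WT 3dpMI. That is 21.7, 3.23, 21.4 and 19.7 CPM, so only WT homeostasis stood apart, and the Q150X over WT ratio there was 6.72 (3.43 to 14.7). Ndufa13 was higher in vascular endothelial-like nuclei, at 77.9 CPM in Q150X homeostasis, 20.3 CPM in WT homeostasis, 30.7 CPM in Q150X 3dpMI and 47.4 CPM in WT 3dpMI. Pericyte-like nuclei were above cardiomyocyte-like ones in all 4 libraries and fibroblast-like nuclei in 2 of the 4. The part of free RNA in the cardiomyocyte level of Ndufa13 was not tested. Ndufa11, an accessory subunit of the membrane arm, was alike in Q150X and WT at homeostasis (6.68 and 6.15 CPM) and higher in both at 3dpMI (22.7 and 17.4 CPM). Its infarction ratio was 3.39 (2.05 to 5.87) in Q150X and 2.82 (1.74 to 4.84) in WT, above 1 in both genotypes. Ndufb7, a membrane-arm subunit, had 15 CPM in Q150X homeostasis, 5.50 CPM in WT homeostasis, 24.2 CPM in Q150X 3dpMI and 16.6 CPM in WT 3dpMI. It was the member of complex I with the highest Q150X over WT ratio at 3dpMI, 1.46 (1.09 to 1.95). Ndufs8, a core subunit with iron-sulphur clusters, rested on few UMIs, 21 in Q150X homeostasis, 12 in WT homeostasis, 12 in Q150X 3dpMI and 66 in WT 3dpMI. Its Q150X over WT ratio at 3dpMI was the lowest of all members, 0.430 (0.211 to 0.802). Ndufc2, a membrane-arm subunit, was nearly even across the libraries, at 23.4 CPM in Q150X homeostasis, 22.6 CPM in WT homeostasis, 21.4 CPM in Q150X 3dpMI and 24.1 CPM in WT 3dpMI. Ndufv3, a small subunit of the NADH-oxidising module, was highest in Q150X homeostasis at 30.7 CPM, against 15.5 CPM in WT homeostasis, and had 15.6 CPM in Q150X 3dpMI and 20.2 CPM in WT 3dpMI.

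Complex II, the succinate dehydrogenase shared with the citric acid cycle, differed least between genotypes at homeostasis. It summed to 413 CPM in Q150X homeostasis, 325 CPM in WT homeostasis, 335 CPM in Q150X 3dpMI and 365 CPM in WT 3dpMI, and 0 of its 4 members reached 1.5-fold. Sdha, the flavoprotein that oxidises succinate, had 167 CPM in Q150X homeostasis, 126 CPM in WT homeostasis, 137 CPM in Q150X 3dpMI and 141 CPM in WT 3dpMI, a homeostasis ratio of 1.32 (1.15 to 1.51). Sdhb, the iron-sulphur subunit, had 100 CPM in Q150X homeostasis, 82.8 CPM in WT homeostasis, 89.7 CPM in Q150X 3dpMI and 97.4 CPM in WT 3dpMI. Both catalytic subunits thus lay within a narrow range. Sdhc, a membrane anchor, was lowest in Q150X 3dpMI at 79.0 CPM, against 96.6 CPM in WT 3dpMI, and had 126 CPM in Q150X homeostasis and 101 CPM in WT homeostasis. Sdhd, the other anchor, had 20.4 CPM in Q150X homeostasis, 14.9 CPM in WT homeostasis, 29.1 CPM in Q150X 3dpMI and 29.7 CPM in WT 3dpMI, higher after infarction in both genotypes, by 1.43 (1.02 to 2.0) in Q150X and 1.99 (1.45 to 2.80) in WT.

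Complex III, the cytochrome bc1 complex, had 360 CPM in Q150X homeostasis, 201 CPM in WT homeostasis, 306 CPM in Q150X 3dpMI and 318 CPM in WT 3dpMI. At homeostasis 5 of its 8 members were at least 1.5-fold higher in Q150X, beside 17.2% of all genes. Uqcrc1, a core protein of the matrix side, had 79.2 CPM in Q150X homeostasis, 46.9 CPM in WT homeostasis, 63.4 CPM in Q150X 3dpMI and 65.0 CPM in WT 3dpMI. Its partner Uqcrc2 had 86.2 CPM in Q150X homeostasis, 69.2 CPM in WT homeostasis, 74.1 CPM in Q150X 3dpMI and 86.3 CPM in WT 3dpMI. The homeostasis ratios of the pair were 1.69 (1.37 to 2.09) for Uqcrc1 and 1.25 (1.04 to 1.5) for Uqcrc2. The small subunit Uqcr11 had the widest ratio of the complex, with 42.1 CPM in Q150X homeostasis, 9.70 CPM in WT homeostasis, 15.3 CPM in Q150X 3dpMI and 21.0 CPM in WT 3dpMI. Q150X homeostasis stood above the other 3 libraries, with a Q150X over WT ratio of 4.34 (2.90 to 6.70) and an infarction ratio of 0.364 (0.257 to 0.508) in Q150X, the lowest of all members. In vascular endothelial-like nuclei Uqcr11 was higher still, at 97.8 CPM in Q150X homeostasis, 24.0 CPM in WT homeostasis, 31.2 CPM in Q150X 3dpMI and 57.2 CPM in WT 3dpMI. Uqcr10, also a small subunit, had 21.7 CPM in Q150X homeostasis, 10.7 CPM in WT homeostasis, 28.2 CPM in Q150X 3dpMI and 26.3 CPM in WT 3dpMI. Uqcrfs1, the Rieske iron-sulphur protein that takes electrons from ubiquinol, had 22.1 CPM in Q150X homeostasis, 15.8 CPM in WT homeostasis, 32.1 CPM in Q150X 3dpMI and 25.8 CPM in WT 3dpMI. It was higher after infarction in both genotypes, by 1.46 (1.06 to 2.01) in Q150X and 1.63 (1.18 to 2.27) in WT.

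Complex IV, cytochrome c oxidase, had the widest genotype ratio of the complexes at homeostasis. It summed to 670 CPM in Q150X homeostasis, 337 CPM in WT homeostasis, 608 CPM in Q150X 3dpMI and 649 CPM in WT 3dpMI, with a Q150X over WT ratio of 1.99 (1.84 to 2.14) in the homeostasis pair and 0.937 (0.889 to 0.987) in the 3dpMI pair. At homeostasis 10 of 15 members with enough UMIs were at least 1.5-fold higher in Q150X, beside 17.2% of all genes, with a median log2 ratio of 1.09. Cox7b, needed for assembly of the complex, had 106 CPM in Q150X homeostasis, 64.0 CPM in WT homeostasis, 79.0 CPM in Q150X 3dpMI and 94.3 CPM in WT 3dpMI. Cox7c, a small membrane subunit, had 72.5 CPM in Q150X homeostasis, 34.0 CPM in WT homeostasis, 76.2 CPM in Q150X 3dpMI and 73.5 CPM in WT 3dpMI, so only WT homeostasis stood apart. Cox4i1, the common isoform of the regulatory subunit 4, was also lowest in WT homeostasis, at 71.2 CPM in Q150X homeostasis, 27.2 CPM in WT homeostasis, 55.1 CPM in Q150X 3dpMI and 59.6 CPM in WT 3dpMI. Cox6b1, on the side of the intermembrane space, had 39.8 CPM in Q150X homeostasis, 28.5 CPM in WT homeostasis, 45.6 CPM in Q150X 3dpMI and 42.2 CPM in WT 3dpMI. Its paralogue Cox6b2, known from testis, had 1, 0, 0 and 3 UMIs in these libraries, and Cox8c, a further isoform of subunit 8, had 0 in all of them, where a one-sided limit of 3 counts applies in each. Cox7a2l, which tethers complexes III and IV into supercomplexes, hardly differed between genotypes, at 26.1 CPM in Q150X homeostasis, 23.3 CPM in WT homeostasis, 24.2 CPM in Q150X 3dpMI and 26.9 CPM in WT 3dpMI.

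The muscle isoforms of complex IV were compared with their ubiquitous partners as a share of the UMIs of each pair, which is not a share of molecules. Cox6a2, the heart and muscle form of subunit 6A, had 175 of 225 UMIs (77.8%, exact binomial interval 71.8% to 83%) in Q150X homeostasis and 40 of 75 (53.3%, 41.4% to 65.0%) in WT homeostasis. At 3dpMI it had 164 of 251 (65.3%, 59.1% to 71.2%) in Q150X and 409 of 562 (72.8%, 68.9% to 76.4%) in WT. The Cox6a2 level was 58.5, 12.9, 50.2 and 53.0 CPM in Q150X homeostasis, WT homeostasis, Q150X 3dpMI and WT 3dpMI. Its partner Cox6a1, with the ETS match printed above, had 16.7, 11.3, 26.6 and 19.8 CPM in the same order. Cox6a2 was thus 4.52-fold (3.19 to 6.54) higher in Q150X at homeostasis and Cox6a1 1.48-fold (0.939 to 2.34).

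Cox8b, the muscle form of subunit 8, gave its lowest share in the Q150X 3dpMI library. It had 110 of 183 UMIs (60.1%, 52.6% to 67.3%) in Q150X homeostasis, 43 of 74 (58.1%, 46.1% to 69.5%) in WT homeostasis, 56 of 160 (35.0%, 27.6% to 42.9%) in Q150X 3dpMI and 206 of 432 (47.7%, 42.9% to 52.5%) in WT 3dpMI. The Cox8b level was 36.8 CPM in Q150X homeostasis, 13.9 CPM in WT homeostasis, 17.1 CPM in Q150X 3dpMI and 26.7 CPM in WT 3dpMI. Q150X over WT, Cox8b had a homeostasis ratio of 2.64 (1.84 to 3.85) and a 3dpMI ratio of 0.642 (0.469 to 0.867), on opposite sides of 1. Cox8a had 24.4 CPM in Q150X homeostasis, 10.0 CPM in WT homeostasis, 31.8 CPM in Q150X 3dpMI and 29.3 CPM in WT 3dpMI. Cox7a1, the muscle form of subunit 7A, had 57 of 149 UMIs (38.3%, 30.4% to 46.6%) in Q150X homeostasis, 21 of 74 (28.4%, 18.5% to 40.1%) in WT homeostasis, 33 of 141 (23.4%, 16.7% to 31.3%) in Q150X 3dpMI and 110 of 405 (27.2%, 22.9% to 31.8%) in WT 3dpMI. The intervals of Q150X and WT overlapped at each time. The level of Cox7a2, its ubiquitous partner, was 30.7 CPM in Q150X homeostasis, 17.1 CPM in WT homeostasis, 33.1 CPM in Q150X 3dpMI and 38.2 CPM in WT 3dpMI.

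Nuclei that should lack the muscle isoforms also held them. At homeostasis Cox6a2 reached 77.3 CPM in fibroblast-like, 136 CPM in vascular endothelial-like and 138 CPM in macrophage or monocyte-like nuclei of Q150X, above its 58.5 CPM in cardiomyocyte-like nuclei of that library. In WT homeostasis it had 21.5 CPM in fibroblast-like and 33.2 CPM in vascular endothelial-like nuclei, against 12.9 CPM in cardiomyocyte-like nuclei. Cox8b at homeostasis had 44.0 CPM in fibroblast-like and 65.2 CPM in vascular endothelial-like nuclei of Q150X, beside 36.8 CPM in cardiomyocyte-like nuclei. In WT homeostasis Cox8b had 10.8 CPM in fibroblast-like and 16.6 CPM in vascular endothelial-like nuclei, beside 13.9 CPM in cardiomyocyte-like nuclei. On the CPM scale the homeostasis levels of Cox6a2 and Cox8b in cardiomyocyte-like nuclei were thus below those in vascular endothelial-like nuclei. The vascular endothelial-like nuclei were shallower, and CPM does not correct for this. A cardiomyocyte difference between genotypes in these isoforms cannot be told apart from free RNA at homeostasis. At 3dpMI the isoforms stood clearer in Q150X, where Cox6a2 had 50.2 CPM in cardiomyocyte-like nuclei against 8.30 CPM in fibroblast-like and 21.8 CPM in vascular endothelial-like nuclei. In WT 3dpMI the cardiomyocyte level of 53.0 CPM was again matched by vascular endothelial-like nuclei, at 56.5 CPM. Cox8b at 3dpMI had 17.1 CPM in cardiomyocyte-like against 3.30 CPM in fibroblast-like nuclei of Q150X, and 26.7 CPM against 7.88 CPM in WT. Vascular endothelial-like nuclei held more Cox8b, with a mean over the 4 libraries of 26.7 CPM, beside 23.6 CPM in cardiomyocyte-like nuclei. They were above cardiomyocyte-like nuclei in 2 of the 4 libraries, those at homeostasis.

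**Figure D3:**
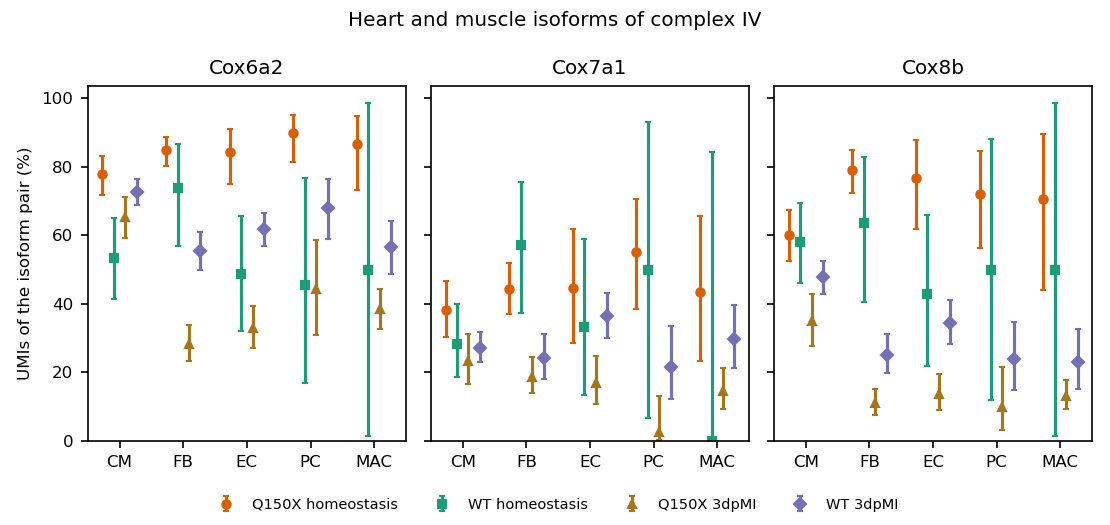
Share of the UMIs of an isoform pair (y axis, %) that came from the muscle isoform, Cox6a2 (with Cox6a1), Cox7a1 (with Cox7a2) and Cox8b (with Cox8a), by library in cardiomyocyte-like (CM), fibroblast-like (FB), vascular endothelial-like (EC), pericyte-like (PC) and macrophage or monocyte-like (MAC) nuclei, with exact binomial intervals. In FB the Cox8b share is 79.1% in Q150X homeostasis, 63.6% in WT homeostasis, 10.9% in Q150X 3dpMI and 25.1% in WT 3dpMI.

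A pair of members was highest in pericyte-like nuclei among the 5 classes plotted. Cox4i2, the isoform of subunit 4 known from lung and hypoxic tissue, had 0 UMIs in Q150X homeostasis, 2 in WT homeostasis, 0 in Q150X 3dpMI and 6 in WT 3dpMI in cardiomyocyte-like nuclei. In pericyte-like nuclei Cox4i2 had 104 CPM (81.2 to 131) in Q150X homeostasis, 58.8 CPM (31.3 to 101) in WT homeostasis, 65.9 CPM (51.2 to 83.5) in Q150X 3dpMI and 83.4 CPM (70.0 to 98.7) in WT 3dpMI. Fibroblast-like nuclei had at most 2.51 CPM of it and vascular endothelial-like nuclei at most 7.24 CPM, below its level in pericyte-like nuclei of every library. Smooth muscle-like nuclei, with 4 Cox4i2 UMIs in each of the WT libraries, had 26.8 CPM in WT 3dpMI and 55.8 CPM in WT homeostasis. In pericyte-like nuclei Cox4i2 gave 51.1% of the UMIs of the subunit 4 pair in Q150X homeostasis, 68.4% in WT homeostasis, 54.4% in Q150X 3dpMI and 57.4% in WT 3dpMI. Ndufa4l2, the hypoxia-inducible paralogue of Ndufa4, was also highest in pericyte-like nuclei, at 20.2 CPM (11.0 to 33.8) in Q150X homeostasis, 4.52 CPM (0.114 to 25.2) in WT homeostasis, 38.8 CPM (27.7 to 52.8) in Q150X 3dpMI and 37.4 CPM (28.6 to 48.1) in WT 3dpMI. Its share of the Ndufa4 and Ndufa4l2 pair there was 66.7% (53.3% to 78.3%) at 3dpMI in Q150X, against 25.9% (15% to 39.7%) at homeostasis. This share also rises where Ndufa4 is lower, and the level of Ndufa4 in this class is not given here. The intervals of the Ndufa4l2 level in Q150X, 11.0 to 33.8 and 27.7 to 52.8 CPM, overlapped. In WT the level of Ndufa4l2 was also higher at 3dpMI (37.4 CPM) than at homeostasis (4.52 CPM, with a wide interval). In cardiomyocyte-like nuclei Ndufa4l2 had 1, 0, 3 and 1 UMIs in Q150X homeostasis, WT homeostasis, Q150X 3dpMI and WT 3dpMI, while Ndufa4 had 52.5, 31.7, 37.0 and 37.8 CPM.

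**Figure D4:**
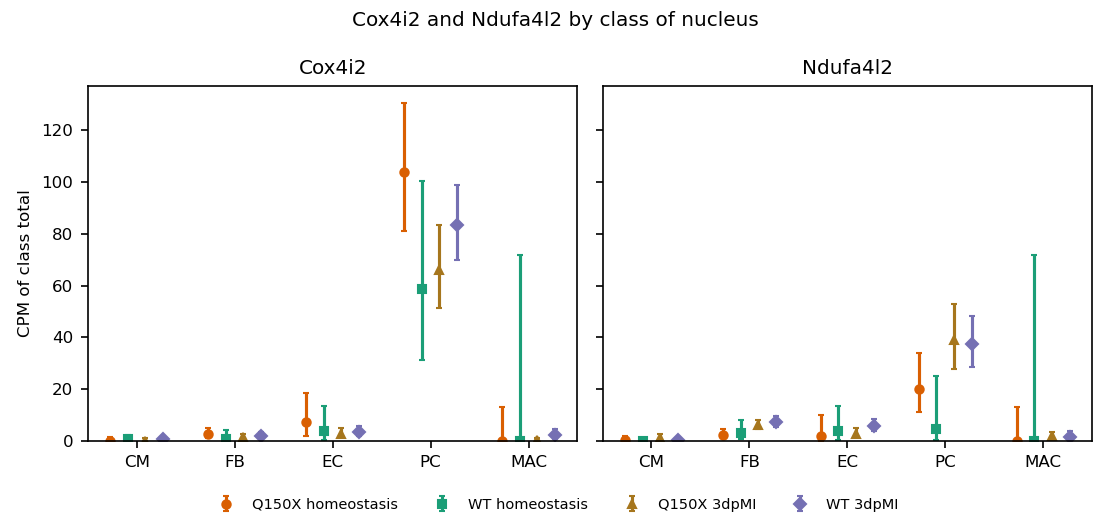
Level (y axis, CPM of the class total) of Cox4i2 and Ndufa4l2 by class of nucleus and library, with exact Poisson intervals and classes abbreviated as CM (cardiomyocyte-like), FB (fibroblast-like), EC (vascular endothelial-like), PC (pericyte-like) and MAC (macrophage or monocyte-like). Both are highest in PC, where Cox4i2 reads 104 CPM in Q150X homeostasis and 58.8 CPM in WT homeostasis.

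Cox7b2, the paralogue of Cox7b, had most of its UMIs in cardiomyocyte-like nuclei. It had 15 UMIs (5.01 CPM) in Q150X homeostasis, 12 (3.88 CPM) in WT homeostasis, 13 (3.98 CPM) in Q150X 3dpMI and 32 (4.15 CPM) in WT 3dpMI in cardiomyocyte-like nuclei. Fibroblast-like nuclei had 0, 0, 1 and 3 Cox7b2 UMIs in these libraries. In the small class of endocardial-like nuclei it had 1 UMI (4.39 CPM) in Q150X homeostasis, 0 in WT homeostasis, 1 (2.43 CPM) in Q150X 3dpMI and 1 (1.85 CPM) in WT 3dpMI, too few to set against the cardiomyocyte level. Its gene spans 105 kb, the second longest of the members, and its Q150X over WT ratio at homeostasis was 1.29 (0.564 to 3.02).

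Complex V, the ATP synthase, had 1102 CPM in Q150X homeostasis, 702 CPM in WT homeostasis, 1074 CPM in Q150X 3dpMI and 1129 CPM in WT 3dpMI. At homeostasis 13 of its 18 members were at least 1.5-fold higher in Q150X, beside 17.2% of all genes, with a median log2 ratio of 0.76. Atp5c1, the gamma subunit of the turning shaft, had 187 CPM in Q150X homeostasis, 149 CPM in WT homeostasis, 182 CPM in Q150X 3dpMI and 202 CPM in WT 3dpMI. Atp5a1, the alpha subunit of the catalytic head, had 150 CPM in Q150X homeostasis, 92.5 CPM in WT homeostasis, 163 CPM in Q150X 3dpMI and 172 CPM in WT 3dpMI. Both were lowest in WT homeostasis, with Q150X over WT ratios there of 1.25 (1.11 to 1.42) for Atp5c1 and 1.62 (1.39 to 1.88) for Atp5a1. Atp5pb, of the stalk that holds the head still, had 132 CPM in Q150X homeostasis, 114 CPM in WT homeostasis, 118 CPM in Q150X 3dpMI and 118 CPM in WT 3dpMI. The small subunits spread more widely. Atp5k, the e subunit at the dimer interface, had 22.4 CPM in Q150X homeostasis, 5.18 CPM in WT homeostasis, 16.8 CPM in Q150X 3dpMI and 18.0 CPM in WT 3dpMI, a homeostasis ratio of 4.33 (2.48 to 8.0). Atp5e, the epsilon subunit of the rotor, had 35.8 CPM in Q150X homeostasis, 12.6 CPM in WT homeostasis, 24.2 CPM in Q150X 3dpMI and 32.0 CPM in WT 3dpMI. Q150X over WT, Atp5e had a homeostasis ratio of 2.83 (1.95 to 4.20) and a 3dpMI ratio of 0.756 (0.579 to 0.977). It too was higher in vascular endothelial-like nuclei, at 105 CPM in Q150X homeostasis, 29.5 CPM in WT homeostasis, 46.7 CPM in Q150X 3dpMI and 70.2 CPM in WT 3dpMI. The Atp5o entry with a span of 243 kb had 25, 26, 24 and 68 UMIs in Q150X homeostasis, WT homeostasis, Q150X 3dpMI and WT 3dpMI, and its homeostasis ratio of 0.994 (0.550 to 1.79) was the lowest of all members. The other Atp5o entry, of 6.47 kb, had 36.1 CPM in Q150X homeostasis and 19.1 CPM in WT homeostasis, a ratio of 1.89 (1.36 to 2.64).

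The 3 genes of subunit c, which forms the rotating ring, were counted separately although they code for the same mature protein. Atp5g1 had 113 of 341 subunit c UMIs (33.1%, 28.2% to 38.4%) in Q150X homeostasis, 56 of 151 (37.1%, 29.4% to 45.3%) in WT homeostasis, 132 of 410 (32.2%, 27.7% to 37.0%) in Q150X 3dpMI and 304 of 879 (34.6%, 31.4% to 37.8%) in WT 3dpMI. Its share was alike in all libraries within the intervals. Atp5g2, with the NRF1 match, gave 20.5% (16.4% to 25.2%) in Q150X homeostasis, 27.8% (20.8% to 35.7%) in WT homeostasis, 28.8% (24.4% to 33.4%) in Q150X 3dpMI and 23.3% (20.6% to 26.3%) in WT 3dpMI. Atp5g3, with the ERR match, gave 46.3% (40.9% to 51.8%) in Q150X homeostasis, 35.1% (27.5% to 43.3%) in WT homeostasis, 39.0% (34.3% to 43.9%) in Q150X 3dpMI and 42.1% (38.8% to 45.4%) in WT 3dpMI. The Q150X over WT ratio at homeostasis was 2.08 (1.5 to 2.93) for Atp5g1, 1.72 (1.16 to 2.59) for Atp5g2 and 3.08 (2.24 to 4.29) for Atp5g3. At 3dpMI Atp5g2 was the highest member of complex V, at 1.36 (1.08 to 1.71), with 36.1 CPM in Q150X and 26.6 CPM in WT.

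The homeostasis difference was larger in members with a shorter gene. Members span 0.953 kb to 243 kb from first to last exon, and were split into 3 groups of 29 at 4.89 kb and 9.31 kb. In cardiomyocyte-like nuclei the median log2 ratio of Q150X over WT at homeostasis was 1.19 in the shortest group (25 members with enough UMIs), 0.73 in the middle group (29) and 0.32 in the longest (28). Genes of the same spans over the whole matrix had medians of 0.46, 0.38 and 0.16. At 3dpMI the members' groups were level, at -0.10, -0.05 and -0.09, and all genes had 0.24, 0.16 and 0.018. For infarction in WT the groups were at 1.14, 0.88 and 0.19, and for infarction in Q150X at -0.33, 0.00087 and -0.18. Over the 82 members, which share libraries, depth and class total, Spearman's rho between span and ratio was -0.71 at homeostasis and -0.09 at 3dpMI, beside -0.25 and -0.21 over all genes with a span. Infarction in WT gave a rho of -0.73 over members, beside -0.32 over all genes with a span. The homeostasis trend was not confined to cardiomyocyte-like nuclei. Over members it gave a rho of -0.63 in fibroblast-like, -0.46 in pericyte-like and -0.39 in vascular endothelial-like nuclei. Macrophage or monocyte-like nuclei gave -0.31 over 14 members and endocardial-like nuclei -0.03 over 9. Whether gene length accounts for the order of the complexes was not tested, and complex II, with members of 7.46 to 28.0 kb, was the complex with the smallest ratio.

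**Figure D5:**
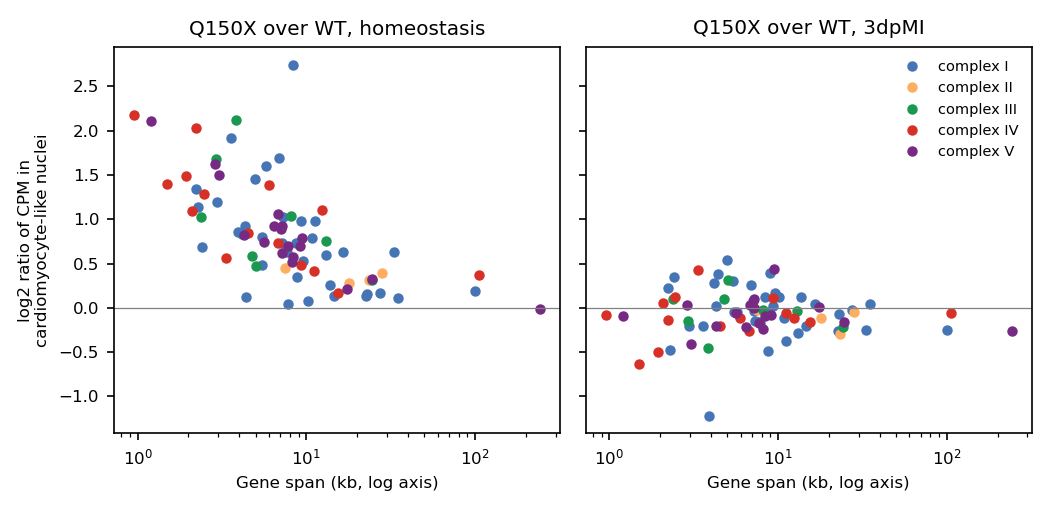
Log2 ratio of CPM in cardiomyocyte-like nuclei, Q150X over WT (y axis), against gene span (x axis, kb, log axis) for 82 members coloured by complex, at homeostasis on the left and 3dpMI on the right. At homeostasis the short genes lie highest (rho -0.71), and at 3dpMI the cloud is level (rho -0.09).

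Most lists of genes that work with the chain had a median between that of the members and that of all genes at homeostasis. Over all genes 17.2% were at least 1.5-fold higher and 4.51% lower. In cardiomyocyte-like nuclei 5 of 13 complex I assembly factors with enough UMIs were at least 1.5-fold higher in Q150X and 0 lower, with a median log2 ratio of 0.36. Among complex IV assembly factors 3 of 14 were higher and 0 lower, a share near that of all genes, with a median of 0.33. Citric acid cycle enzymes had 4 of 13 higher and 0 lower, with a median of 0.46. Carriers of ADP and phosphate with mitochondrial creatine kinase had 3 of 7 higher, with a median of 0.58. Genes of cristae and cardiolipin, the exception, had 1 of 11 higher and a median of 0.14, below that of all genes. Cytosolic ribosomal proteins, which belong to another machine, had 37 of 73 higher and 0 lower, with a median of 0.63. At 3dpMI the medians were 0.08 for complex I assembly factors, 0.21 for complex IV assembly factors, -0.05 for the citric acid cycle and 0.38 for ribosomal proteins.

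The 13 subunits coded by the mitochondrial genome parted from the nuclear-coded ones after infarction in cardiomyocyte-like nuclei. Their median log2 ratio of Q150X over WT was 0.50 at homeostasis, with 6 at least 1.5-fold higher and 1 lower (17.2% and 4.51% of all genes), and -0.70 at 3dpMI, with 0 higher and 9 lower (12.7% and 12% of all genes). All 13 were at least 1.5-fold lower at 3dpMI than at homeostasis, with a median of -3.97 in Q150X and -2.81 in WT. Mitochondrially coded UMIs summed to 376 CPM at 3dpMI and 5821 CPM at homeostasis in Q150X, and to 660 CPM at 3dpMI and 4731 CPM at homeostasis in WT. In preparations of nuclei these transcripts come from outside the nucleus, and the share of them over all nuclei kept had a median of 0.126% in Q150X 3dpMI and 0.164% in WT 3dpMI against 0.794% in Q150X homeostasis and 0.862% in WT homeostasis. The part of nuclear preparation in this difference was not tested.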

How the data were processed

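Nuclei of whole mouse hearts were made into libraries with the 10x Genomics 5' kit v2 and sequenced on a NovaSeq6000, per the labels' protocols. The authors deposited UMI counts that were not normalised, for every gene in every nucleus. Cell Ranger 7.1.0 made them, per the file headers, and the build was GRCm39, per the submitters' processing notes, which also name Scanpy. No deposited barcode had under 500 UMIs.

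Nuclei with under 300 genes or over 10% mitochondrial UMIs were removed, as were Scrublet doublets (214 to 756 a library). In Q150X homeostasis and WT 3dpMI the automatic threshold marked 0.0154% and 0% of nuclei. A share below 0.5% was taken as a failed call, so the top 0.8% per 1000 nuclei were removed instead. Between 4167 and 8479 nuclei a library were kept. The 4 libraries were clustered together with scanpy 1.11.5 (10000 counts a nucleus, logged, 2000 variable genes without the members, 30 principal components, 15 neighbours, leidenalg 0.10.2 at resolution 1, no integration), and marker lists for 15 classes gave names to the 26 clusters. After the data were seen, a rule was added that a cluster sharing at least 3 leading genes with a larger cluster of another class stays unnamed.

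UMIs were summed by library and class and divided by the class total (CPM). Intervals are exact (Poisson for levels, conditional binomial for ratios, Clopper-Pearson for shares) at 95% and cover counting error only. Genes were compared from 20 UMIs up, summed over both libraries, and 1.5-fold was the size counted. With 1 library per group there is no test. Values are given for the most counted members of each complex, those with the highest and lowest ratio in each comparison, and the isoform sets. Members and lists were chosen with earlier results of these data known. Gene spans came from GENCODE M21 on GRCm38 and were used as a property only; promoters were matched for 70 of 87 members. The remaining tools were matplotlib 3.10.9, igraph 0.11.9, scikit-learn 1.9.0, pandas 2.3.3, scipy 1.17.1 and numpy 2.4.6 under Python 3.11.15. Alternatives changed filters, clustering, scaling, minimum UMIs and fold.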

Additional observations from a re-analysis of the deposited data

Results flagged for a closer look

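The 3dpMI over homeostasis ratio of the members lay on opposite sides of 1 in Q150X and WT in each class and complex given here, on the scale of the class total. In cardiomyocyte-like nuclei this depended on the scale and the cluster. Scaled to short cardiomyocyte transcripts the summed ratio was 0.748 in Q150X and 0.822 in WT, and scaled to ribosomal protein genes it was 0.452 in Q150X and 0.626 in WT. Within cluster 2 it was 1.07 in Q150X and 1.48 in WT. The difference between the genotypes was not tested, since each group has 1 library, and the same low WT homeostasis library stands under every WT ratio. In cardiomyocyte-like nuclei the summed ratio over all members was 0.892 in Q150X and 1.43 in WT. Complex I had 0.860 in Q150X and 1.23 in WT. For complex II it was 0.810 in Q150X and 1.12 in WT. Complex III had 0.850 in Q150X and 1.58 in WT. For complex IV it was 0.907 in Q150X and 1.92 in WT. Complex V had 0.975 in Q150X and 1.61 in WT, and the interval in Q150X, 0.929 to 1.02, held 1. Over all members the other classes showed the same sides, with 0.666 in Q150X and 1.30 in WT in fibroblast-like nuclei. Vascular endothelial-like nuclei had 0.615 in Q150X and 1.49 in WT. In pericyte-like nuclei it was 0.679 in Q150X and 1.44 in WT. Macrophage or monocyte-like nuclei had 0.684 in Q150X and 1.49 in WT. In endocardial-like nuclei it was 0.673 in Q150X and 1.59 in WT.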

How the results depend on the processing

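No paired analysis was possible because each group has 1 library, and for the same reason no replicate could be left out. The values compared are the summed ratio, the median log2 ratio and the counts of members at least 1.5-fold higher or lower in cardiomyocyte-like nuclei, Q150X over WT at homeostasis and at 3dpMI and 3dpMI over homeostasis in Q150X and in WT. Values that moved beyond their interval, by over 1.5 times for a count, or to the other side of 1 follow, and the cause was not tested. With at least 1000 UMIs per nucleus, the summed ratio was 0.999 at 3dpMI and 0.939 for infarction in Q150X, and the median log2 ratio was 0.020 at 3dpMI. With at least 1000 UMIs per nucleus, the number of higher members was 1 at 3dpMI and 8 for infarction in Q150X, and the number of lower members was 1 at 3dpMI. With doublets kept, the summed ratio was 1.01 at 3dpMI and 0.939 for infarction in Q150X, and the median log2 ratio was 0.045 at 3dpMI. With doublets kept, the number of higher members was 1 at 3dpMI, and the number of lower members was 1 at 3dpMI. At Leiden resolution 2, the summed ratio was 1.0 at 3dpMI and 0.945 for infarction in Q150X, and the median log2 ratio was 0.020 at 3dpMI and -0.012 for infarction in Q150X. At Leiden resolution 2, the number of higher members was 1 at 3dpMI and 8 for infarction in Q150X, and the number of lower members was 1 at 3dpMI. With each library clustered on its own, the summed ratio was 1.01 at 3dpMI and 0.959 for infarction in Q150X, and the median log2 ratio was 0.032 at 3dpMI and 0.0046 for infarction in Q150X. With each library clustered on its own, the number of higher members was 2 at 3dpMI and 9 for infarction in Q150X, and the number of lower members was 1 at 3dpMI. With nuclei weighted equally, the summed ratio was 1.64 at homeostasis, 0.932 at 3dpMI, 0.926 for infarction in Q150X and 1.63 for infarction in WT, and the median log2 ratio was -0.12 at 3dpMI. With nuclei weighted equally, the number of higher members was 1 at 3dpMI, and the number of lower members was 6 at 3dpMI. With each nucleus thinned to 1000 UMIs, the summed ratio was 1.61 at homeostasis, 0.995 at 3dpMI, 0.963 for infarction in Q150X and 1.56 for infarction in WT, and the median log2 ratio was 0.048 at 3dpMI. With each nucleus thinned to 1000 UMIs, the number of higher members was 3 at 3dpMI and 8 for infarction in Q150X, and the number of lower members was 10 at 3dpMI. Relative to the median over all genes, the summed ratio was 1.34 at homeostasis, 0.928 at 3dpMI, 0.769 for infarction in Q150X and 1.06 for infarction in WT, and the median log2 ratio was 0.55 at homeostasis, -0.37 for infarction in Q150X and 0.41 for infarction in WT. Relative to the median over all genes, the number of higher members was 1 for infarction in Q150X and 28 for infarction in WT, and the number of lower members was 22 for infarction in Q150X and 2 for infarction in WT. Scaled to the short cardiomyocyte transcripts, the summed ratio was 0.966 at homeostasis, 0.879 at 3dpMI, 0.748 for infarction in Q150X and 0.822 for infarction in WT, and the median log2 ratio was 0.074 at homeostasis, -0.18 at 3dpMI, -0.42 for infarction in Q150X and 0.036 for infarction in WT. Scaled to the short cardiomyocyte transcripts, the number of higher members was 17 at homeostasis, 1 for infarction in Q150X and 9 for infarction in WT, and the number of lower members was 2 at homeostasis, 5 at 3dpMI, 25 for infarction in Q150X and 17 for infarction in WT. Scaled to ribosomal protein genes, the summed ratio was 1.06 at homeostasis, 0.768 at 3dpMI, 0.452 for infarction in Q150X and 0.626 for infarction in WT, and the median log2 ratio was 0.21 at homeostasis, -0.37 at 3dpMI, -1.14 for infarction in Q150X and -0.36 for infarction in WT. Scaled to ribosomal protein genes, the number of higher members was 19 at homeostasis, 1 for infarction in Q150X and 3 for infarction in WT, and the number of lower members was 10 at 3dpMI, 72 for infarction in Q150X and 32 for infarction in WT. Within cluster 2, the summed ratio was 1.08 at 3dpMI, 1.07 for infarction in Q150X and 1.48 for infarction in WT, and the median log2 ratio was 0.086 at 3dpMI and 0.018 for infarction in Q150X. Within cluster 2, the number of higher members was 5 at 3dpMI and 10 for infarction in Q150X, and the number of lower members was 4 for infarction in Q150X. Within cluster 12, the summed ratio was 2.18 at homeostasis and 2.3 for infarction in WT, and the median log2 ratio was 1.22 at homeostasis and 1.22 for infarction in WT. Within cluster 12, only 35 members had enough UMIs at homeostasis, of which 25 were higher and 2 lower. For infarction in WT 53 members had enough UMIs, of which 1 was lower. Fewer members were compared there than in the whole class, so a smaller count of higher members does not show a smaller difference. The share of all genes past 1.5-fold within cluster 12 is not given here. Within cluster 14, the summed ratio was 1.02 at 3dpMI, and the median log2 ratio was -0.0070 at 3dpMI. Within cluster 14, the number of higher members was 1 at 3dpMI, and the number of lower members was 1 at 3dpMI. Without cluster 12, an alternative chosen after seeing the data, the summed ratio was 1.39 for infarction in WT, and the number of higher members was 1 at 3dpMI. Without cluster 12, the number of lower members was 1 at 3dpMI. With at least 1 UMI, the number of higher members was 2 at 3dpMI, and the number of lower members was 2 at homeostasis and 2 for infarction in WT. With 2-fold in place of 1.5-fold, the number of higher members was 25 at homeostasis, 1 for infarction in Q150X and 30 for infarction in WT. The number of lower members was 1 at 3dpMI and 2 for infarction in Q150X. The share of all genes past 2-fold was not counted, so the 2-fold counts cannot be set against all genes. A limit of 5% mitochondrial UMIs, members kept among the variable genes, a total without mitochondrially coded genes and Ttn, and a minimum of 50 UMIs moved none of these values. Clusters 12 and 14 gave values only where both libraries held at least 50 nuclei. The homeostasis ratio stayed above 1 except when scaled to short cardiomyocyte transcripts, while the ratio at 3dpMI lay within 1.08 and 0.768 on both sides of 1. Depth limits the members of few UMIs most, such as Ndufs8 and Ndufa13, and the spread between hearts is unknown.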

Other observations

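The subunit c genes also differed in their shares outside cardiomyocytes. In fibroblast-like nuclei Atp5g2 gave 14.4% of subunit c UMIs (11.0% to 18.6%) in Q150X homeostasis, 31.5% (21.1% to 43.4%) in WT homeostasis, 41.9% (38.6% to 45.2%) in Q150X 3dpMI and 38.0% (34.3% to 41.9%) in WT 3dpMI. Atp5g3 gave 56.1% in Q150X homeostasis, 42.5% in WT homeostasis, 37.5% in Q150X 3dpMI and 37.8% in WT 3dpMI there. Cox6b2 had 0 UMIs in fibroblast-like nuclei of Q150X and WT at homeostasis, and 17 UMIs in Q150X and 10 in WT at 3dpMI. These are values of single libraries, and different fibroblast clusters held most of the class at homeostasis and at 3dpMI. Short cardiomyocyte transcripts in fibroblast-like nuclei stood at 42.85% of their cardiomyocyte level in Q150X homeostasis and 27.9% in WT homeostasis. At 3dpMI they stood at 5.48% in Q150X and 13.3% in WT. The part of free RNA in these shares was not tested.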
